A study of Mus musculus with 10 samples.

Results

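Collagen genes encode the chains of the most abundant structural proteins of connective tissue. Here they were taken as the protein-coding rows of the deposited lung gene table whose symbol is Col, a number, the letter a and a second number. The rule found 44 genes of 54532 rows, of which 22046 were labelled protein-coding. The genes lay on 15 chromosomes and were grouped by the kind of structure their chains build. Of the 44, 11 are fibrillar, 6 belong to the basement membrane, 3 are network-forming and 24 are of other kinds. Col21a1, which stands on the same class list, was not analysed here.

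The study asked what increased pulmonary flow (IPF) does to the lung of a young mouse. All animals were wild-type C57BL/6J pups operated on at postnatal day 7 (P7), and whole lungs were taken at P30. In the IPF group the abdominal aorta was punctured through into the inferior vena cava, which makes an aortocaval fistula that sends more blood through the lungs. The sham group had the same operation without the puncture. Bulk mRNA was sequenced from 5 IPF and 5 sham lungs. The whole organ was lysed, so fewer cells of a type and less RNA per cell cannot be told apart. Labels do not say that libraries of a group came from separate litters or days, so p-values measure the spread between these libraries.

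A collagen molecule is a triple helix of 3 alpha chains, each a long run of short repeats that begin with glycine. Fibrillar collagens of types I, III and V form the tension-bearing fibers around airways and vessels and in the alveolar wall. Type IV collagen forms the sheet-like network of the basement membrane, on which alveolar epithelium and capillary endothelium sit back to back. Type VI collagen makes beaded microfilaments that link cells and basement membranes to the interstitial fibers. Type VIII collagen is a short, network-forming collagen known from vessel walls and from the corneal Descemet membrane. The chains are hydroxylated and folded in the endoplasmic reticulum, secreted, trimmed and then cross-linked outside the cell.

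The upstream sequences of Col8a1, Col6a1 and Col6a2 are shown because Col8a1 and Col6a1 passed the test below and Col6a2 lies beside Col6a1 and had a like estimate. They were taken from RefSeq (build GRCm38.p6) on the minus strand, on which all 3 genes lie, and read 5′ to 3′ up to the start of the gene. The Col8a1 window is chr16:57754738-57754987, the Col6a2 window is chr10:76623631-76623880 and the Col6a1 window is chr10:76726169-76726294. Col6a2 has 2 RefSeq starts, of which the one that matches the table was used. The Col6a1 run is 126 bases long because the RefSeq start lies 124 bases inside the gene as the deposited table draws it, and bases inside the gene are not printed. Capitals mark the letters GGGCGG, which reads CCGCCC on the other strand, and CAGACA.
Col8a1: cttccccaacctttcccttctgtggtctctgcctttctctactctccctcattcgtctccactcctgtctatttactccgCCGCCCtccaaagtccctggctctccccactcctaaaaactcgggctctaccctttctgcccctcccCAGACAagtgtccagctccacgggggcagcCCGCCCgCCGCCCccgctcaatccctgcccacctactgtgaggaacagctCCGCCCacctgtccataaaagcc
Col6a1: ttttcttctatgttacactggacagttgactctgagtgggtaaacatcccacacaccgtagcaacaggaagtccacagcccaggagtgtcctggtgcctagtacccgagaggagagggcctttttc
Col6a2: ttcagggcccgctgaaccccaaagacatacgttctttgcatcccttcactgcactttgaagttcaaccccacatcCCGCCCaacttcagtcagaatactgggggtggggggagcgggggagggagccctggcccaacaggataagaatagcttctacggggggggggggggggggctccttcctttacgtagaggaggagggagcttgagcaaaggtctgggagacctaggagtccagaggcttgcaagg

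RefSeq windows of 250 bases before the start were found for 35 of the 44 collagen genes, 38 windows in all. GGGCGG, the GC box read by Sp-family factors, occurred on either strand in 57.9% of the collagen windows and in 32.7% of all 32851 windows. The median G+C content was 59.0% in the collagen windows and 52.4% in all windows. Col8a1 had 4 such boxes, Col6a2 had 1 and Col6a1 had none. The other motifs searched, on both strands, were the TATA box TATAAA (13.2% of collagen windows against 12.4% of all), the CCAAT box (34.2% against 33.8%), the Smad-type element CAGACA (23.7% against 17.1%) and the TEAD-type element GGAATG (10.5% against 12.6%). TGAGTCA, the AP-1 element, was found in 2.63% of the collagen windows against 4.46% of all, and its only collagen holder was Col6a1, in the stretch between the RefSeq start and the start in the table. CACGTG, the E-box of clock factors, was in none of the 38 collagen windows and in 6.02% of all. A match of letters is a description of the window and not a bound site.

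Levels were given as FPKM, read fragments relative to both gene length and library size, so levels of different genes can be set side by side. The libraries held 15483046 to 19026843 reads on genes, recovered from the values, of which 146229 to 190519 fell on collagen genes. That was 0.792 to 0.965% of the reads in IPF lungs and 0.927 to 1.16% in sham lungs, and the ranges overlapped. Surfactant, airway, alveolar type 1 and endothelial genes were all present, so the tissue matched its label. Sex and group cannot be told apart in these libraries: Xist, expressed from the inactive X chromosome of females, ranged from 26.8 to 43.2 FPKM in IPF lungs and from 0.0301 to 0.0767 in sham lungs. Ddx3y, on the Y chromosome, was listed at 0 in all 5 IPF lungs and ranged from 14.3 to 21.4 in sham lungs. Of 13 circadian clock genes, 12 passed the test, 3 higher and 9 lower in IPF lungs, and the hour of collection is not given in the sources used here. The part of sex and of the clock in any collagen result was not tested.

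The summed collagen level lay mostly in a few chains. The 6 genes with the highest level, Col4a1, Col4a2, Col3a1, Col6a1, Col1a1 and Col1a2, made up 75.2% of the summed collagen FPKM. Basement membrane chains held 46.7% of it, fibrillar chains 29.0%, type VI chains 18.2% and network-forming chains 0.434%. Mean levels ran from 0.00433 FPKM (Col19a1) to 249.7 FPKM (Col4a1). A mean of at least 0.1 FPKM was reached by 35 genes, which were tested. The other 9 were under that level and were not tested.

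**Figure D1:**
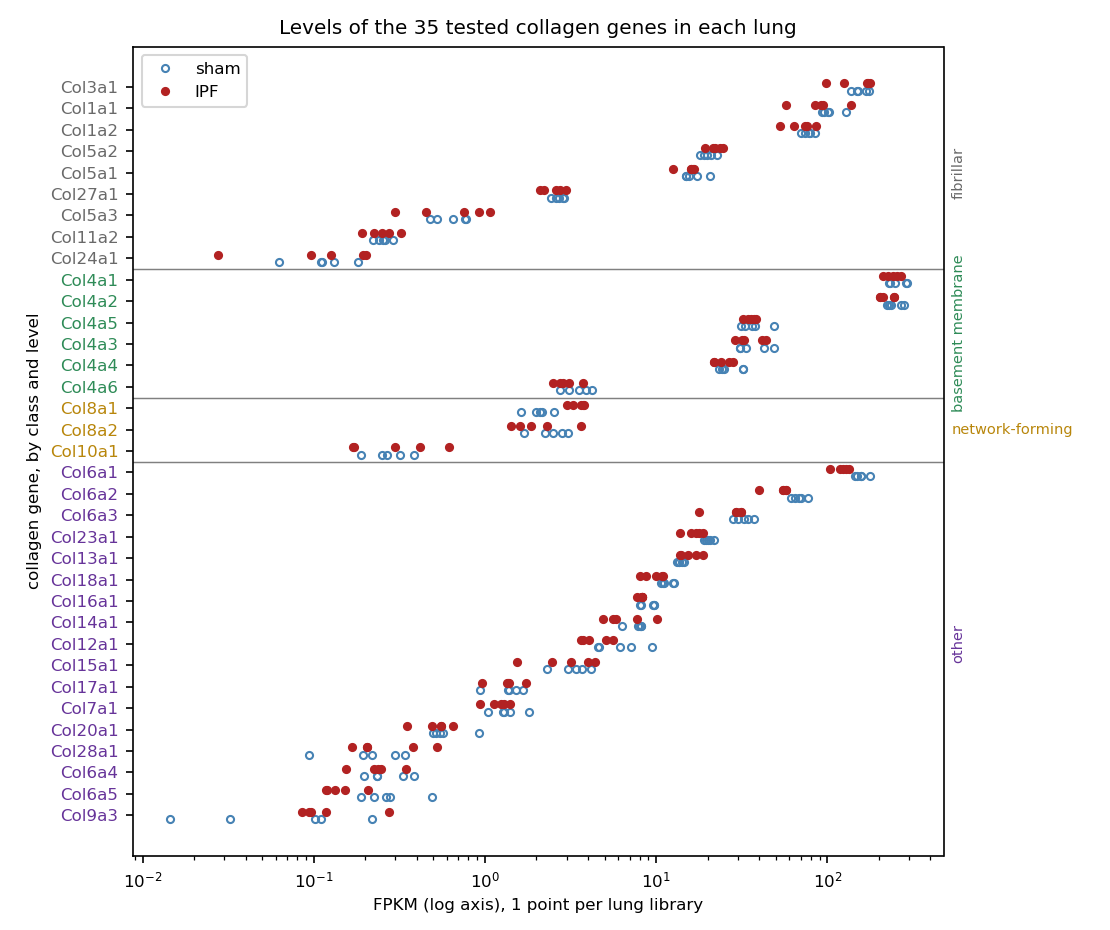
FPKM of the 35 tested collagen genes on a log axis, 1 point per lung library, open blue for sham and filled red for IPF, with genes grouped by class and ordered by mean level. Col4a1 and Col4a2 sit above all other collagen genes in every lung, and the Col8a1 points of the 2 groups do not overlap.

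Few collagen genes differed between IPF and sham lungs, and no fibrillar or basement membrane chain was among them. Col8a1 was higher in IPF lungs and Col6a1 was lower, and these were the only 2 of 35 genes with a limma adjusted p under 0.05, where p-values were adjusted over all 20448 genes tested. All genes together gave 1196 at that limit (5.85%), 759 higher in IPF (3.71%) and 437 lower (2.14%), so the collagen count was near the background. With the further limit of an absolute log2 fold change above 1, which 233 of all genes met (1.14%), 0 collagen genes passed. By limma voom on the recovered reads 3 collagen genes had an adjusted p under 0.05 (Col8a1, Col6a1 and Col6a2), and 0 met both limits, beside 1466 of all genes (7.17%) and 292 (1.43%). At an unadjusted p under 0.05 in the FPKM fit there were 8, against 3989 of all genes (19.5%). They were the same 3 with Col23a1, Col18a1, Col13a1, Col6a5 and Col12a1. The groups did not overlap in 4 collagen genes, 1 higher and 3 lower in IPF lungs. Among all genes 1491 did not overlap (7.29%), 925 higher (4.52%) and 566 lower (2.77%).

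The fold changes of the 35 genes on the log2(FPKM + 0.1) scale had a median of −0.14, against 0.0016 for all genes tested. The estimate was negative for 27 and positive for 8, while 50.4% of all genes tested had a positive estimate. Of the 16 collagen genes with a mean of at least 10 FPKM, 14 had a negative estimate and 1, Col6a1, passed. At that level 474 of 5223 genes passed (9.08%). The median fold change of the 5223 was 0.03, and 57.8% of them had a positive estimate. The 95% interval crossed 0 in 11 of the 16. IPF replicate 5 had the lowest value of its group in 11 of the 16 genes, and sham replicate 1 had the highest of its group in 13. Summed over all 44 genes, the level was 1228, 1200.1, 1227, 1231 and 1079.6 FPKM in IPF replicates 1 to 5. In sham replicates 1 to 5 it was 1498, 1197, 1252, 1277 and 1414 FPKM. The lowest value was that of IPF replicate 5 and the highest that of sham replicate 1, while the other 4 IPF lungs lay within the sham range. With the alternative median-of-ratios scaling of the libraries, IPF replicate 2 also lay just below that range (1200.7 against 1202.8 FPKM).

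**Figure D2:**
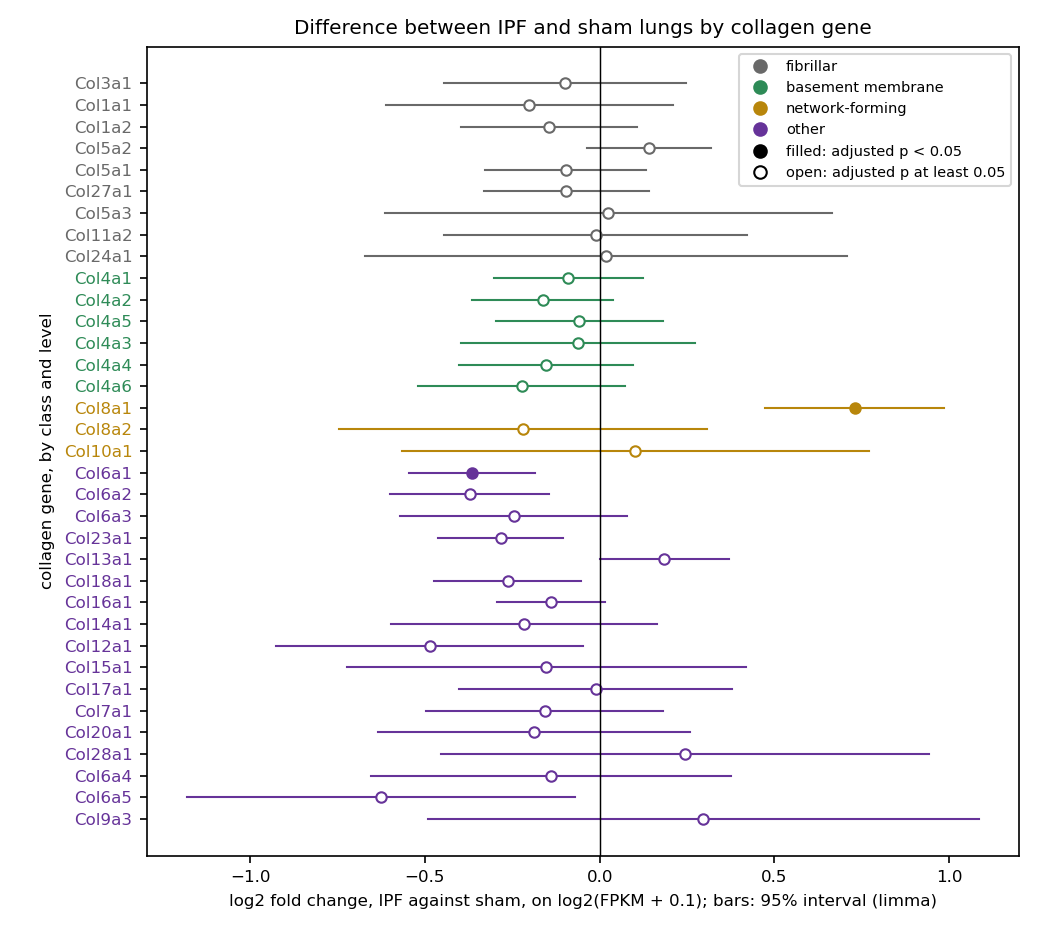
Log2 fold change of IPF against sham lungs on the log2(FPKM + 0.1) scale for each of the 35 tested collagen genes, with 95% intervals from limma, coloured by class, and filled where the adjusted p was under 0.05. Col8a1 (0.73) and Col6a1 (−0.37) are the only filled points, and all 6 basement membrane points lie left of 0 with intervals that cross it.

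Fibrillar collagens did not pass the test in any of the 9 genes with enough reads, and none had an unadjusted p under 0.05 or passed by voom. Among all genes 5.85% passed, 19.5% had an unadjusted p under 0.05 and 7.17% passed by voom. A count of 0 passing among 9 was thus near the background. The median fold change of the 9 was −0.09, with estimates from −0.20 to 0.14 and limma adjusted p from 0.373 to 0.986. Col3a1, the type III chain of distensible vessel and alveolar fibers, was the most abundant of them. Its level was 126, 176, 169, 173 and 97.9 FPKM in IPF replicates 1 to 5 and 174, 138, 149, 151 and 167 FPKM in sham replicates 1 to 5. Apart from IPF replicates 1 and 5, which lay below all sham lungs, the IPF values were within or just above the sham range. The fold change was −0.10 (SE 0.16, 95% interval −0.45 to 0.25, limma adjusted p = 0.785), and without IPF replicate 5 it was 0.04.

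Col1a1 and Col1a2 encode the chains of type I collagen, which assembles as 2 alpha 1 chains and 1 alpha 2 chain. Col1a1 was at 84.8, 94.0, 137, 92.1 and 57.6 FPKM in IPF lungs and 128, 92.5, 102, 95.1 and 101 FPKM in sham lungs. IPF replicate 3 was the highest lung of all and IPF replicate 5 the lowest, so the IPF group enclosed the sham group. The fold change was −0.20 (SE 0.19, interval −0.61 to 0.21), and without IPF replicate 5 it was −0.04. Col1a2 was at 63.9, 75.9, 85.7, 74.5 and 53.2 FPKM in IPF lungs and 84.3, 70.5, 74.3, 77.8 and 79.4 FPKM in sham lungs. It followed the same order of lungs at both ends of the IPF group, with a fold change of −0.14 (SE 0.11, limma adjusted p = 0.539), and −0.05 without IPF replicate 5.

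Type V collagen sets the diameter of type I fibrils. Col5a1 ranged from 12.6 to 16.7 FPKM in IPF lungs and from 15.0 to 20.6 in sham lungs, with a fold change of −0.10 (interval −0.33 to 0.13). Col5a2 ranged from 19.2 to 24.4 and 17.9 to 22.7 FPKM, with a fold change of 0.14 (interval −0.04 to 0.32). The other fibrillar genes were far less abundant. Col27a1, a fibrillar collagen known from cartilage, had a mean of 2.61 FPKM and Col5a3, a further type V chain, 0.667 FPKM. Col11a2, a chain of cartilage type XI collagen, and Col24a1 had means of 0.253 and 0.124 FPKM. The intervals were −0.33 to 0.14 for Col27a1, −0.44 to 0.42 for Col11a2, −0.61 to 0.66 for Col5a3 and −0.67 to 0.71 for Col24a1. They were widest for the latter pair, which had 772 and 160 reads over the 10 lungs.

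The 6 basement membrane chains all had negative estimates, from −0.22 to −0.06, and none passed. The shared sign rested on single lungs in 2 of them: without sham replicate 5 the estimate was 0.04 for both Col4a3 and Col4a5, and without IPF replicate 2 it was 0.0066 for Col4a3. None of the 6 had an unadjusted p under 0.05 or passed by voom, and their median was −0.12. Among all genes 5.85% passed, 19.5% had an unadjusted p under 0.05 and 7.17% passed by voom. A count of 0 passing among 6 was thus near the background. Col4a1 and Col4a2 form the alpha 1, alpha 1, alpha 2 network found in every basement membrane. Col4a1 was at 270.2, 227, 213, 243 and 256 FPKM in IPF lungs and 291, 232, 231, 248 and 287 FPKM in sham lungs. Col4a2 was at 244, 203, 204, 212 and 244 FPKM in IPF lungs and 280.4, 224, 230.3, 236 and 269 FPKM in sham lungs. In both genes the values of the groups overlapped, and IPF replicate 1 and sham replicate 1 were at or near the top of their groups. The fold changes were −0.09 (SE 0.10, limma adjusted p = 0.663) for Col4a1 and −0.16 (SE 0.09, limma adjusted p = 0.363) for Col4a2.

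Col4a3, Col4a4 and Col4a5 build the tougher alpha 3, alpha 4, alpha 5 network of alveolar and glomerular basement membranes. Col4a3 was at 41.3, 29.0, 31.5, 32.7 and 43.7 FPKM in IPF lungs and 42.4, 33.6, 31.1, 31.0 and 48.8 FPKM in sham lungs. Replicates 1 and 5 were the highest of each group. Col4a4 ranged from 21.7 to 28.2 FPKM and 23.3 to 32.0 FPKM in the IPF and sham groups. Col4a5 is X-linked and was at 37.4, 32.2, 34.4, 36.0 and 38.3 FPKM in IPF lungs and 37.9, 33.3, 31.2, 36.2 and 49.0 FPKM in sham lungs. Its fold change was −0.06 (interval −0.30 to 0.18), and the sham lung of 49.0 FPKM was replicate 5. Col4a6, the other X-linked chain, ranged from 2.49 to 3.73 FPKM and 2.76 to 4.22 FPKM with a fold change of −0.22 (SE 0.14). The X-linked pair stood at estimates of −0.06 and −0.22, beside −0.16 to −0.06 in the 4 autosomal chains. With Xist-positive lungs in the IPF group alone, these values cannot separate sex from the operation.

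The network-forming class held the only collagen gene that rose. Col8a1 (ENSMUSG00000068196) encodes the alpha 1 chain of type VIII collagen and occupies bases 57624258 to 57754737 of chromosome 16 in GRCm38. Its level was 3.62, 3.74, 3.03, 3.77 and 3.27 FPKM in IPF replicates 1 to 5, and 1.97, 1.63, 2.53, 2.10 and 2.14 FPKM in sham replicates 1 to 5. Every IPF lung was above every sham lung, and the nearest were IPF replicate 3 and sham replicate 3. Behind these values were 449 to 538 reads per IPF lung and 229 to 318 per sham lung. The fold change was 0.73 (SE 0.12, interval 0.47 to 0.98, limma adjusted p = 0.00490), with means of 3.49 ± 0.322 and 2.08 ± 0.324 FPKM (SD, n = 5 each). An exact two-sided permutation test gave p = 0.00794, the smallest that 5 against 5 lungs allow and the value of any gene whose groups do not overlap. Col8a1 passed in all 20 alternative analyses, with limma adjusted p from 0.00121 to 0.0307.

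The other 2 genes of the class did not pass. Col8a2, the alpha 2 chain of type VIII collagen, was at 1.61, 2.30, 3.66, 1.87 and 1.42 FPKM in IPF lungs and 2.23, 2.50, 2.80, 3.06 and 1.68 FPKM in sham lungs. IPF replicate 3 was the highest of the 10, while the other 4 IPF lungs lay among or below the sham lungs. Its fold change was −0.22 (interval −0.74 to 0.31, limma adjusted p = 0.667). Col10a1, a chain of growth-plate cartilage, was low at 0.619, 0.172, 0.169, 0.298 and 0.415 FPKM in IPF lungs and 0.388, 0.249, 0.318, 0.269 and 0.189 in sham lungs, from 9 to 33 reads per lung. Its groups overlapped fully (fold change 0.10, SE 0.30).

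Of the 24 other collagens 17 were tested. Col6a1 alone passed, lower in IPF lungs, and 7 had an unadjusted p under 0.05, beside 19.5% of all genes. Type VI collagen took most of this class. Col6a1 (ENSMUSG00000001119, chromosome 10, bases 76708792 to 76726168) encodes the alpha 1 chain, which assembles with alpha 2 and alpha 3. It was at 124, 129, 118, 134 and 104 FPKM in IPF replicates 1 to 5 and 177, 144, 158, 156 and 148 FPKM in sham replicates 1 to 5. All IPF lungs were below all sham lungs. The fold change was −0.37 (SE 0.08, interval −0.55 to −0.18, limma adjusted p = 0.0247, exact permutation p = 0.00794, the smallest possible and set by the lack of overlap). It held in 16 of 20 alternative analyses by limma and was lost, at adjusted p from 0.0514 to 0.0614, when IPF replicate 1, IPF replicate 3, sham replicate 3 or sham replicate 4 was left out. Without IPF replicate 5 and sham replicate 1 together it was −0.27 (limma adjusted p = 0.0245).

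Col6a2 (ENSMUSG00000020241, chromosome 10, bases 76595762 to 76623630) encodes the alpha 2 chain. It was at 55.5, 57.1, 54.9, 57.0 and 40.0 FPKM in IPF lungs and 77.0, 61.0, 68.1, 69.8 and 64.6 FPKM in sham lungs. The groups did not overlap, and IPF replicate 5 stood below its group. The fold change was −0.37 (SE 0.10), close to that of Col6a1, but the limma adjusted p was 0.0617. Without IPF replicate 5 the fold change was −0.27 and the limma adjusted p 0.0350. Col6a3, the long alpha 3 chain, was at 29.2, 31.3, 29.3, 31.3 and 17.9 FPKM in IPF lungs and 37.5, 28.2, 30.1, 32.4 and 34.2 FPKM in sham lungs. Here the groups overlapped, and the estimate was −0.25 (limma adjusted p = 0.397), and −0.10 without IPF replicate 5.

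The minor type VI chains were low. Col6a4 ranged from 0.155 to 0.345 FPKM in IPF lungs and from 0.197 to 0.385 in sham lungs. Col6a5 was at 0.119, 0.134, 0.208, 0.152 and 0.120 FPKM in IPF lungs and 0.264, 0.225, 0.278, 0.491 and 0.188 in sham lungs, with 1 IPF lung above the lowest sham lung. Its fold change of −0.63 (SE 0.25) did not pass (limma adjusted p = 0.195). The size of this estimate depends on the pseudocount: it was the largest negative one of the 35 genes at 0.1, but with a pseudocount of 1 it was −0.17, smaller than those of Col12a1 (−0.42) and Col6a1 (−0.36), and by voom it was −0.92. Col6a6, next to it on chromosome 9, was under the tested level at 0.0641, 0.144, 0.0923, 0.0838 and 0.0370 FPKM in IPF lungs and 0.0529, 0.0365, 0.0476, 0.0197 and 0.0358 in sham lungs. Of its 5 IPF values, 4 were above all sham values, which is the opposite order to that of Col6a5.

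**Figure D3:**
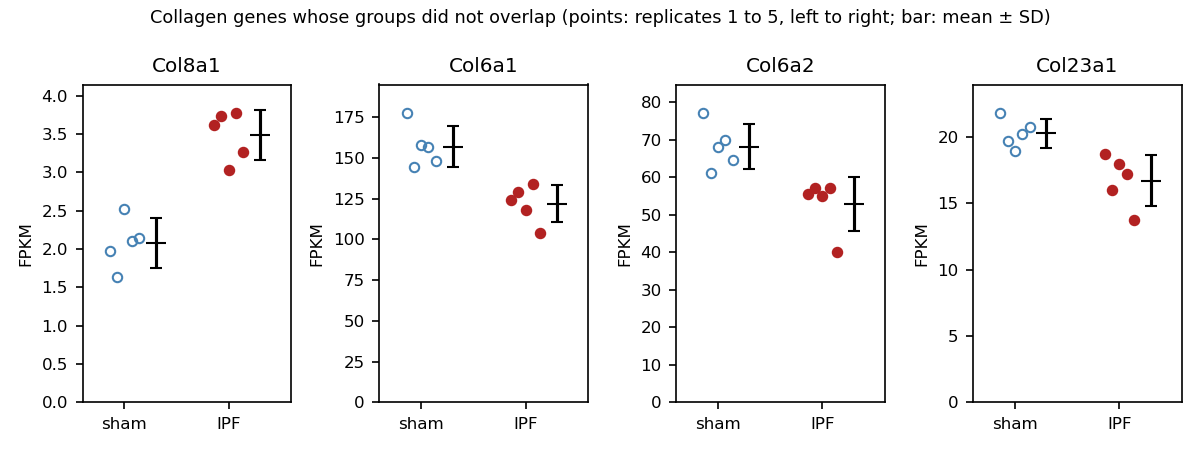
FPKM of the 4 collagen genes whose groups did not overlap, with replicates 1 to 5 from left to right in each group and the mean ± SD at the side, on axes that start at 0. The IPF lungs are higher for Col8a1 (3.03 to 3.77 against 1.63 to 2.53 FPKM) and lower for Col6a1, Col6a2 and Col23a1.

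Among the membrane-spanning collagens, Col23a1 (ENSMUSG00000063564, chromosome 11, bases 51289920 to 51583918) was at 18.7, 16.0, 17.9, 17.2 and 13.7 FPKM in IPF lungs and 21.7, 19.6, 18.9, 20.2 and 20.7 FPKM in sham lungs. The groups were apart by a narrow margin, since IPF replicate 1 was just under sham replicate 3. The fold change was −0.28 (SE 0.08, limma adjusted p = 0.0694). Col13a1, a membrane collagen of cell adhesion sites, ranged from 13.8 to 18.8 FPKM in IPF lungs and from 13.2 to 14.5 in sham lungs, with a fold change of 0.18 (limma adjusted p = 0.254). Col17a1, the hemidesmosome collagen of epithelium, had means of 1.36 ± 0.277 and 1.37 ± 0.276 FPKM (SD, n = 5 each).

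Col18a1 and Col15a1 are the basement membrane proteoglycan collagens whose ends can be cut off as endostatin-type fragments. Col18a1 ranged from 8.03 to 11.0 FPKM in IPF lungs and from 10.7 to 12.7 in sham lungs, with a fold change of −0.26 (SE 0.10, limma adjusted p = 0.150). Col15a1 varied more, from 1.53 to 4.41 and 2.32 to 4.17 FPKM, with a fold change of −0.15 (SE 0.26).

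The fibril-associated collagens decorate the surface of type I fibers. Col12a1 ranged from 3.64 to 5.61 FPKM in IPF lungs and from 4.55 to 9.41 in sham lungs, with a fold change of −0.49 (SE 0.20, limma adjusted p = 0.202). Col14a1 and Col16a1 had estimates of −0.22 and −0.14. Col16a1 was the steadiest tested collagen in the IPF group, with values from 7.77 to 8.32 FPKM. Col20a1 had a mean of 0.567 FPKM and Col9a3, a cartilage chain, 0.114 FPKM, at 1 to 18 reads per lung. Col7a1, the anchoring fibril of epithelium, had a mean of 1.28 FPKM and an estimate of −0.16. Col28a1 was at a mean of 0.263 FPKM with an interval of −0.46 to 0.94.

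The 9 genes with a mean under 0.1 FPKM were Col25a1, Col6a6, Col22a1, Col26a1, Col2a1, Col9a2, Col11a1, Col9a1 and Col19a1. Col2a1, Col9a1, Col9a2 and Col11a1 are chains of cartilage fibrils. Col9a2, Col9a1 and Col19a1 had at most 3 reads in every one of the 10 lungs. Col2a1 ranged from 0 to 0.0890 FPKM in IPF lungs and from 0.0142 to 0.0539 in sham lungs. Of 10 cartilage markers, 7 had means under 0.1 FPKM, and the defining Acan and Matn1 were at 0 to 0.0808 and 0 to 0.106 FPKM in IPF lungs and 0 to 0.0241 and 0 to 0.0303 in sham lungs. These 4 cartilage chains were at or close to the limit of detection in both groups.

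Summing FPKM over a class showed which classes parted by group, given here as a description with no test. The fibrillar sum was 317, 391, 433, 384 and 243 FPKM in IPF lungs and 432, 337, 364, 362 and 392 FPKM in sham lungs. The IPF values covered the whole sham range, reaching below it and just above it (432.99 against 431.8 FPKM). With the alternative median-of-ratios scaling of the libraries, the highest IPF value (432.46 FPKM) was below the highest sham value (439.31 FPKM). The basement membrane sum was 624, 515, 510.4, 549 and 611 FPKM in IPF lungs and 687, 551, 549, 581 and 689 FPKM in sham lungs, and these ranges overlapped too. The sum of the other collagens was 281, 288, 277, 292 and 219.7 FPKM in IPF lungs and 375, 305, 333, 329 and 328 FPKM in sham lungs, which did not overlap. Most of it was type VI. The type VI sum was 209, 218, 203, 223 and 162 FPKM in IPF lungs and 292, 234, 257, 259 and 248 FPKM in sham lungs. Here the highest IPF lung was below the lowest sham lung. Most of this sum was Col6a1 and Col6a2, whose groups did not overlap singly, while those of Col6a3 overlapped. The sum is therefore not a result separate from those of Col6a1 and Col6a2. The network-forming sum, mostly Col8a1 and Col8a2, was 5.85, 6.21, 6.87, 5.94 and 5.11 FPKM in IPF lungs and 4.59, 4.38, 5.65, 5.43 and 4.01 FPKM in sham lungs, with 4 IPF lungs above all sham lungs.

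**Figure D4:**
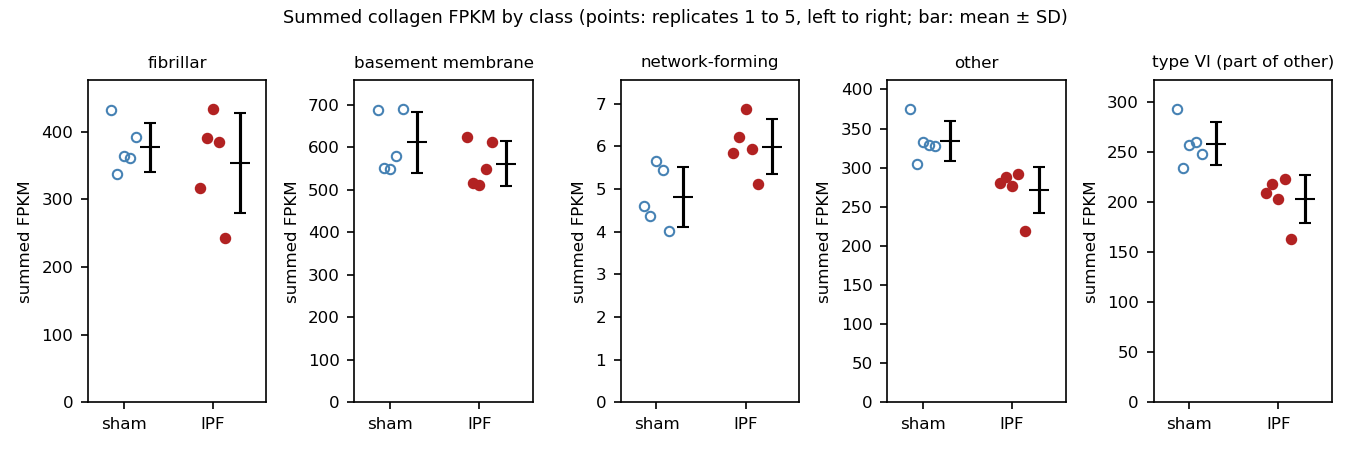
Summed FPKM of each collagen class per lung, with replicates 1 to 5 from left to right and the mean ± SD at the side, on axes that start at 0. The fibrillar and basement membrane sums overlap between sham and IPF, while the type VI sums do not (162 to 223 FPKM in IPF lungs against 234 to 292 in sham lungs). Most of the type VI sum is Col6a1 and Col6a2.

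Chains can be set against each other within a lung, which removes the library size. Of 9 such ratios, 8 of chains of the same collagen type and 1 of type III against type I, tested by exact two-sided permutation with Benjamini-Hochberg adjustment over the 9, 0 had an adjusted p under 0.05 and 2 had an unadjusted p under 0.05. The ratio of Col6a2 to Col6a1 was 0.447, 0.443, 0.464, 0.426 and 0.384 in IPF lungs and 0.434, 0.422, 0.431, 0.446 and 0.436 in sham lungs. Apart from IPF replicate 5, it stayed between 0.422 and 0.464 while every IPF lung lay below every sham lung in both genes (exact permutation p = 0.921). The ratio of Col4a2 to Col4a1 was 0.902, 0.896, 0.958, 0.874 and 0.954 in IPF lungs and 0.965, 0.967, 0.999, 0.953 and 0.939 in sham lungs. It had the smallest spread of the 9, a coefficient of variation of 4.08% over the 10 lungs (exact permutation p = 0.0635, adjusted p = 0.190).

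The ratio of Col8a2 to Col8a1 was 0.444, 0.615, 1.21, 0.496 and 0.435 in IPF lungs and 1.13, 1.53, 1.11, 1.46 and 0.784 in sham lungs. In 4 IPF lungs the ratio was below all sham lungs, while IPF replicate 3 lay within the sham range (exact permutation p = 0.0317, adjusted p = 0.143). The ratio of Col5a2 to Col5a1 was 1.28, 1.44, 1.38, 1.52 and 1.52 in IPF lungs and 1.01, 1.20, 1.32, 1.23 and 1.30 in sham lungs, and 4 IPF lungs were above all sham lungs (exact permutation p = 0.0238, adjusted p = 0.143). In type I collagen, the ratio of Col1a2 to Col1a1 was 0.784 ± 0.108 in IPF lungs and 0.750 ± 0.0610 in sham lungs (SD, n = 5 each). The ratio of Col3a1, the type III chain, to the type I chain Col1a1 was 1.64 ± 0.276 in IPF lungs and 1.51 ± 0.115 in sham lungs. The alpha 3, alpha 4, alpha 5 network gave Col4a4 to Col4a3 ratios of 0.693 ± 0.0639 in IPF lungs and 0.737 ± 0.0529 in sham lungs, and Col4a5 to Col4a3 ratios of 1.02 ± 0.116 in IPF lungs and 1.01 ± 0.0984 in sham lungs. The ratio of Col6a3 to Col6a1 was 0.226 ± 0.0311 in IPF lungs and 0.207 ± 0.0157 in sham lungs.

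**Figure D5:**
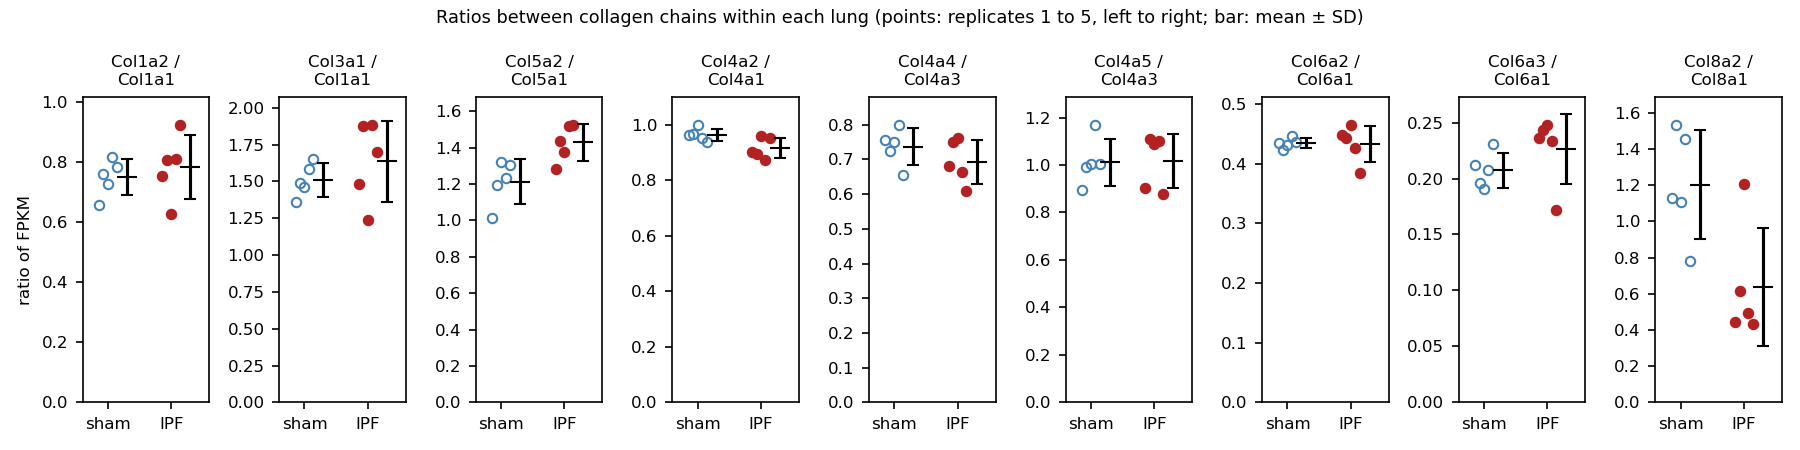
Ratio of the FPKM of 2 collagen chains within each lung for 9 chain pairs, with replicates 1 to 5 from left to right and the mean ± SD at the side, on axes that start at 0. The Col6a2 to Col6a1 and Col4a2 to Col4a1 points cluster tightly in both groups, and the Col8a2 to Col8a1 points are lower in 4 of 5 IPF lungs.

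Several collagen genes lie side by side in the genome, and 8 neighbouring pairs had at most 85161 bases between them. Col4a1 and Col4a2 start head to head on chromosome 8, with gene bodies that overlap by 22 bases, and their estimates were −0.09 and −0.16. Col4a4 and Col4a3 start 71 bases apart on chromosome 1 (−0.15 and −0.06). Col4a6 and Col4a5 start 1308 bases apart on the X chromosome (−0.22 and −0.06). Col6a2 and Col6a1 lie in the same direction 85161 bases apart on chromosome 10, and both estimates were −0.37. Col3a1 and Col5a2 point toward each other with 24614 bases between them on chromosome 1, and their estimates had opposite signs (−0.10 and 0.14). The remaining pairs were Col9a1 with Col19a1, Col6a6 with Col6a5 and Col6a5 with Col6a4. Whether strand was used in counting is not given in the sources used here, so reads in the 22 shared bases of Col4a1 and Col4a2 cannot be told apart.

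The enzymes and chaperones that make collagen were listed apart from the collagens. Of 21 genes for modification and folding, 3 passed by limma, 1 higher and 2 lower in IPF lungs, with a median fold change of −0.07. Of all genes tested 5.85% passed, 3.71% higher and 2.14% lower, and the counts of this list and of those that follow stand beside these shares with no test of the list. P4ha1, a catalytic subunit of prolyl 4-hydroxylase, was at 30.3 to 32.1 FPKM in sham lungs and rose to 34.2 to 45.3 in IPF lungs (fold change 0.36, limma adjusted p = 0.0153). P3h1, a prolyl 3-hydroxylase, fell (−0.23, limma adjusted p = 0.0190). Fkbp14, a prolyl isomerase of the endoplasmic reticulum, was at 13.0 to 14.9 FPKM in sham lungs and fell to 6.09 to 10.7 in IPF lungs (−0.91, limma adjusted p = 0.00307). The groups of all 3 genes did not overlap. Serpinh1, the collagen chaperone HSP47, did not pass (0.39, limma adjusted p = 0.248), and it is named here after its values were seen.

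Of 11 genes for secretion and its control, 1 passed. Creb3l1, a membrane-bound transcription factor that acts on collagen genes in bone, was at 5.86 to 7.17 FPKM in sham lungs and rose to 8.99 to 17.3 in IPF lungs (1.04, limma adjusted p = 0.00353). Of 19 tested genes for propeptide cleavage and fibril assembly, 5 passed, 4 higher and 1 lower, beside 5.85% of all genes, with a median fold change of 0.004. Prelp and Ogn, small proteoglycans of the matrix, rose by 0.45 and 0.45 on the log2 scale (limma adjusted p = 0.00204 and 0.00704). Pcolce2, an enhancer of propeptide cleavage, rose (0.33), and Adamts14, a procollagen N-proteinase, fell (−0.99, limma adjusted p = 0.0261). Lum, a fibril-binding proteoglycan named here after its values were seen, rose (1.09, limma adjusted p = 0.0415). None of the 7 cross-linking genes passed by limma, 4 had an unadjusted p under 0.05 (19.5% of all genes did), and their median fold change was −0.11.

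Of 10 collagen receptors, 1 passed, beside 5.85% of all genes: Itga1, the integrin alpha 1 chain that binds type IV and type I collagen, was higher (0.31, limma adjusted p = 0.0340). Of 15 laminins, nidogens and proteoglycans that share the basement membrane with type IV collagen, 2 passed, beside the same 5.85%. Lama1 rose from a mean of 0.152 ± 0.0499 FPKM (SD, n = 5) in sham lungs to 0.522 ± 0.212 in IPF lungs (1.24, limma adjusted p = 0.0348), and Lamb3, an epithelial laminin chain, fell (−0.35, limma adjusted p = 0.0202). The median of the 15 genes was −0.13, close to that of the 6 type IV chains.

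Cell types were followed by their markers, whose counts stand beside 5.85% of all genes passed, 3.71% higher and 2.14% lower. Alveolar fibroblast markers passed in 3 of 10 genes, all higher in IPF lungs (Wnt2 0.65, Fgfr4 0.55 and Pdgfra 0.35 by limma), and their summed level was 2351 to 2639 FPKM in IPF lungs and 1857 to 2360 in sham lungs. Endothelial markers passed in 1 of 8 (Cldn5, 0.56), and their sum did not overlap, at 1262 to 1448 FPKM in IPF lungs and 1136 to 1191 in sham lungs. Adventitial fibroblast markers passed in 0 of 9 tested genes, with sums of 1417 to 1558 and 1275 to 1575 FPKM, and alveolar myofibroblast markers in 0 of 8, with sums of 82.0 to 102 and 81.5 to 92.0 FPKM. The adventitial sum lay mostly in Gsn. Averaged with equal weight over the 9 tested markers, as the log2 deviation from each gene's mean over the 10 lungs, IPF replicates 1 and 5 stood at −0.44 and −0.48 and IPF replicate 3 at 0.63, while the sham lungs ran from −0.15 to 0.19. On the same scale the ciliated airway markers stood at −0.48 and −0.46 in IPF replicates 1 and 5. They stood lowest, at −0.53, in IPF replicate 4, whose Col3a1 level was 173 FPKM. They stood at 0.92 in IPF replicate 3, and the sham lungs ran from −0.34 to 0.46. IPF replicate 3 was also the highest lung for smooth muscle (0.49) and fat markers (1.73). IPF replicates 1 and 5 were also the lowest IPF lungs for Col3a1, and IPF replicate 3 the highest lung for Col1a1, and the part of any of these cell types in the collagen values of those lungs was not tested. By the same limma fit, 1 of 8 smooth muscle markers passed (Synpo2, 0.64), 1 of 8 pericyte markers (Cspg4, −0.43) and 1 of 8 alveolar type 1 markers (Clic3, −0.33). The median fold changes of these lists were −0.10, 0.05 and −0.12. For smooth muscle and pericytes the median was thus opposite in sign to the named gene. No gene passed among those tested for mesothelium (6), ciliated airway cells (8), cartilage (3), basal epithelium (3), Schwann cells (5), skeletal and heart muscle (8), fat (4) and lung identity (8). At an unadjusted p under 0.05, which 19.5% of all genes had, there was 1 gene each for lung identity, ciliated cells, Schwann cells, adventitial fibroblasts and myofibroblasts, and 0 for the other lists without a passing gene. The endothelial sum was higher in every IPF lung while the type VI collagen sum was lower in every one, and the part of cell numbers in the collagen values was not tested.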

How the data were processed

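Whole-lung RNA of 5 IPF and 5 sham mice, grouped by their labels, was analysed. Per the paper's methods, Fastp was used for trimming, HISAT2 for alignment and StringTie for quantification. The authors deposited FPKM for 54532 genes, and whether these tools made those values cannot be told from the sources used here. The labels' processing notes also list Bowtie 0.12.2. The methods name GRCm39, but the table's positions are those of GRCm38. Library kits differ between the sources (KAPA mRNA HyperPrep, NEBNext Ultra).

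Genes with a mean of at least 0.1 FPKM (20448) were fitted with limma 3.58.1 in R 4.3.3 with moderated, trended variances, comparing IPF with sham on log2(FPKM + 0.1) without covariates, and with Benjamini-Hochberg adjustment over all. This scale understates the change of low genes. Reads were recovered as whole multiples of the value of 1 read (100% of values whole within 0.1), and 3 reads or fewer was taken as the floor. Ratios and single values were tested by exact permutation. Counts of reads cover counting error only. The paper's DESeq2 test was not run; the recovered reads were tested by voom. The fit was also run on simulated data with known changes, and no result of that run is used here. Tables and figures were made in Python 3.11.15 with pandas 2.3.3, numpy 2.4.6 and matplotlib 3.10.9.

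Collagen genes, classes, motifs and gene lists were chosen with earlier results of these data known. Named genes are those with an adjusted p under 0.05, the 3 most abundant of each class, the chains of the ratios, X-linked and low members, and at most 4 passing genes of each other list (Lum, Serpinh1 and Gsn, named beyond this rule, were chosen after their values were seen); further collagen genes are given to account for all members. Acan and Matn1 were also named outside this rule, as cartilage markers. Motif shares come from RefSeq GRCm38.p6 windows, and symbols of 44 of 44 members matched. Alternatives were pseudocounts of 1 and 0.01, other filters, median-of-ratios scaling, no trend, the replicate block, voom, protein-coding genes alone and leaving out each lung.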

Additional observations from a re-analysis of the deposited data

Results flagged for a closer look

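Of 70 groups of 5 lungs checked over the 35 tested collagen genes, 8 (11.4%) held a lung whose gap to the nearest other lung took up more than 0.71 of the group's range, Dixon's limit for 5 values. Chance flags about 1 in 20.

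IPF replicate 5 was the low lung in 4 of them. Col6a2 was at 40.05 FPKM there and from 54.9 to 57.1 in the other 4 IPF lungs, and Col6a3 was at 17.88 FPKM against 29.2 to 31.3. Col5a1 was at 12.62 FPKM against 16.0 to 16.7, and Col16a1 at 7.771 FPKM against 8.24 to 8.32.

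Sham replicate 1 was the high lung in 2. Col1a1 was at 128.1 FPKM there and from 92.5 to 102 in the other sham lungs, and Col20a1 was at 0.9203 FPKM against 0.499 to 0.572. Col14a1 was at 6.353 FPKM in sham replicate 4, below 7.83 to 8.17 in the others, and Col9a3 at 0.2744 FPKM in IPF replicate 1, above 0.0854 to 0.117 in the others.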

How the results depend on the processing

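Of the collagen genes, 4 had an adjusted p under 0.05 in at least 1 fit: Col8a1, Col6a1, Col6a2 and Col23a1. No fold change reversed among the called genes. Col8a1 passed in all 20 alternatives and Col6a1 in 16 of 20. Col6a2 passed in 5 and Col23a1 in 1. The count of 2 collagen genes became 4 with protein-coding genes alone, and 1 to 3 when single lungs were left out. The count of 1 lower gene became 2 with a mean FPKM of at least 1, with voom and without IPF replicate 5 and sham replicate 1 together (chosen after seeing the data), 3 with protein-coding genes alone, and 0 to 2 without single lungs. For all genes, 748 to 1619 passed when single lungs were left out (1196 with all 10), 484 to 946 of them higher (759 with all 10), with 748 without IPF replicate 4, 788 without IPF replicate 2 and 797 without sham replicate 3. The count past both limits (233 as reported) became 74 with a pseudocount of 1 and 154 under the filter at 1 FPKM. The causes were not tested. Lungs with the same replicate number had deviations with correlations from −0.0204 to 0.0953, and 3 of 5 IPF lungs were closest to their own number. Whether the numbers pair lungs cannot be told from these values. With the replicate block 2 collagen genes and 1045 of all genes passed. Among genes that passed in no fit, the sign of the fold change differed from the reported one in 30 fits of single genes. Depth limits the genes under 1 FPKM: Col9a3 rests on 75 reads over 10 lungs and Col24a1 on 160.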
